A study of Mus musculus with 10 samples.

Results

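The genes described here are the aryl hydrocarbon receptor and the enzymes that activate or clear 7,12-dimethylbenz[a]anthracene (DMBA), in back skin of wild-type (WT) and Zfp36 ΔARE knock-in mice. They are the 9 genes Ahr, Arnt, Ahrr, Tiparp, Cyp1a1, Cyp1b1, Ephx1, Gstp1 and Gstp2, chosen by symbol out of 24454 genes in the count table, and all 9 were among the 15543 genes with enough counts to be tested. Each group held 5 mice of strain C57BL/6, with 1 library per mouse. The Zfp36 ΔARE mice carry a deletion of AU-rich elements in the 3′-UTR of Zfp36, the gene of the mRNA-destabilizing protein tristetraprolin (TTP), at its own locus and so in every cell type, and the WT mice were littermates. Whether the knock-in mice carried 1 or 2 copies of the allele was not given in the sources used here. Mice of both groups received a single dose of 400 nmol DMBA on the shaved back at 7 weeks of age, followed by 10 nmol of the tumor promoter 12-O-tetradecanoylphorbol-13-acetate (TPA) 2 times a week for 20 weeks. Full-thickness skin without tumors was taken at the end, long after the single DMBA dose, and no skin without DMBA and TPA is compared here. The paper describes this skin as adjacent to papillomas. It reports multiple papillomas in all control mice, and a lower and later tumor burden in Zfp36 ΔARE mice, some of which stayed tumor free. The tumor burden of each mouse sequenced was not given in the sources used here, so genotype and tumor burden cannot be told apart.

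DMBA is a polycyclic aromatic hydrocarbon that becomes mutagenic only after it is metabolized. The aryl hydrocarbon receptor (AHR) binds such compounds in the cytoplasm, enters the nucleus, pairs with ARNT and binds xenobiotic response elements, whose core letters are GCGTG, in genes such as Cyp1a1, Cyp1b1, Ahrr and Tiparp. AHRR and TIPARP in turn restrain the receptor. CYP1B1 and CYP1A1 oxidize DMBA to epoxides, microsomal epoxide hydrolase (EPHX1) turns these into diols that a further oxidation makes DNA-reactive, and the pi-class glutathione S-transferases GSTP1 and GSTP2 conjugate reactive products to glutathione.

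The RefSeq promoter windows of 3 genes that AHR is known to induce are shown because Cyp1a1 and Ahrr fell in Zfp36 ΔARE skin and Cyp1b1 did not pass the test. Each window runs from 250 bases before to 50 after the annotated start on the strand of the gene (build GRCm38.p6). Capitals mark GCGTG or, for a match on the opposite strand, its reverse complement CACGC. The Cyp1a1 window is chr9:57697363-57697662 on the plus strand, the Cyp1b1 window is chr17:79715012-79715311 on the minus strand and the Ahrr window is chr13:74292282-74292581 on the minus strand.
Cyp1a1 promoter: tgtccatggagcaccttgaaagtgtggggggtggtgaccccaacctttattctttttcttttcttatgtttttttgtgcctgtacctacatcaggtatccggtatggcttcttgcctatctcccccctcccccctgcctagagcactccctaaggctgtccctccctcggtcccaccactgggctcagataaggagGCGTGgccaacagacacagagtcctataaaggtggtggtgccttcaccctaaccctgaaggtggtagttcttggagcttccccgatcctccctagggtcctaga
Cyp1b1 promoter: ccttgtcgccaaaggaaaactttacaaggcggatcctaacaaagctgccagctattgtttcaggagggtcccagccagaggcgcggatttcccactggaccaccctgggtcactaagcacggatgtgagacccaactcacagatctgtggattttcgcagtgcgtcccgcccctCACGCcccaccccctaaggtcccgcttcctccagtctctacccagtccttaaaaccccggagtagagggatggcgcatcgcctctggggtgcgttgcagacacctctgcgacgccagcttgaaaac
Ahrr promoter: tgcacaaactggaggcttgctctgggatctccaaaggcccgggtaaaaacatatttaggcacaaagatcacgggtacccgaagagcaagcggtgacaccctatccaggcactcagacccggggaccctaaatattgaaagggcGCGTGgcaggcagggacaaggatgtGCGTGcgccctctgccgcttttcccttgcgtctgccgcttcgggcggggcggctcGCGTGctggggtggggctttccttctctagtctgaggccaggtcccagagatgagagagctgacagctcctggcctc
The Cyp1a1 window held 1 GCGTG, at -54 from the start, the Cyp1b1 window 1 on the opposite strand, at -76, and the Ahrr window 3, at -107, -82 and -27, the last of them within the longer TNGCGTG. Tiparp, Arnt and Gstp1 each held 1 and Ephx1 and Gstp2 held 0, searched on both strands. Of all 32851 RefSeq promoter windows of this length, 32.4% held GCGTG and 5.07% held TNGCGTG. The window for Ahr was not analysed here. The windows cover only the bases next to the start, and the distal enhancers of Cyp1a1 lie outside them.

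TTP binds AU-rich elements, built on the pentamer ATTTA, in the 3′-UTRs of its target mRNAs. The annotated 3′-UTR of each gene, from its transcript with the longest coding sequence (GENCODE vM21, build GRCm38), was therefore searched for ATTTA and for the nonamer TTATTTATT, in which the pentamer is embedded. The stretch of 30 bases richest in pentamers is shown for each of the 3 genes with the most pentamers, with ATTTA in capitals.
Tiparp 3′-UTR, bases 1317 to 1346: cttccacacaattATTTAttttgccctagt
Cyp1b1 3′-UTR, bases 580 to 609: cctaagaATTTAtggctgATTTAacaactg
Ahr 3′-UTR, bases 792 to 821: ctcaaagtccactATTTAttgtgtaatata
Cyp1b1 held 11 pentamers in 3143 bases, Tiparp 9 in 1956 bases and Ahr 7 in 2718 bases, and the Tiparp stretch above also holds the only nonamer among the 9 genes. Ahrr held 2 pentamers and Cyp1a1 held 1 in a 3′-UTR of 945 bases. Arnt, Ephx1, Gstp1 and Gstp2 held 0, in 3′-UTRs of 177, 228, 69 and 69 bases. Over 14444 genes, 63.9% held at least 1 pentamer, with a median of 1 per gene, and 6.9% held the nonamer. Of the 3 genes with the most pentamers, Tiparp and Ahr were lower in Zfp36 ΔARE skin and Cyp1b1 did not pass the test. Of the 4 with 0 pentamers, Ephx1 and Gstp2 were lower and Arnt and Gstp1 did not pass. Whether pentamers bear on these differences was not tested.

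Total counts per library ran from 19595035 to 36419573. Zfp36 itself averaged 2152 normalized counts in WT and 5427 in knock-in skin, a log2 fold change of 1.33, higher in 5 of 5 knock-in libraries (adjusted p = 0.00195, edgeR). Adjusted p-values are from the quasi-likelihood test of edgeR, corrected over all genes tested by the Benjamini-Hochberg method, unless another test is named. Xist reached 14829 to 28087 counts in every WT library and knock-in replicate 1, but 4 to 15 in knock-in replicates 2 to 5, the only libraries with Y-linked counts above 1 (3349 to 4262). Genotype and the sex of the mice therefore cannot be told apart in most of this comparison. The hair shaft score, the mean log2 CPM (counts scaled to library size) of 10 hair shaft genes, ran from 2.66 to 8.19 in WT and from 8.83 to 10.2 in Zfp36 ΔARE skin, with WT replicates 3 and 1 lowest. The scores of both groups thus did not overlap, although only 3 of the 10 hair shaft genes passed the test, all 3 higher in knock-in skin (median log2 fold change of the 10, 2.28). Fits with this score are given beside the results they touch. In these tissue samples, fewer cells of a type and less RNA per cell cannot be told apart.

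In WT skin, scaled to the gene length given with the counts, Gstp1 was at 50.5 ± 5.42 (SD, n = 5) CPM per kb and Ephx1 at 47.4 ± 4.26, and their ranges overlapped. Arnt followed at 20.2 ± 0.953 CPM per kb, below both without overlap. Cyp1b1 (12.7 ± 2.08), Ahr (10.6 ± 2.20) and Tiparp (10.2 ± 1.6) overlapped one another in CPM per kb. Cyp1a1 (5.49 ± 0.666) and Gstp2 (5.34 ± 2.45) overlapped in turn, and the highest Gstp2 library (8.39) also passed the lowest Tiparp library (7.94). Ahrr was lowest at 0.622 ± 0.167 CPM per kb, with 63 to 118 raw counts per WT library. In Zfp36 ΔARE skin Gstp1 (49.5 ± 3.91 CPM per kb) lay above Ephx1 (37.7 ± 3.20) without overlap, and the levels per length of Cyp1a1 (2.29 ± 0.531) and Gstp2 (2.25 ± 0.286) were less than those of Tiparp (7.59 ± 1.08) and Ahr (7.45 ± 1.54).

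Of the 9 genes, 6 were lower in Zfp36 ΔARE skin and 0 higher, with Cyp1a1, Gstp2, Ahrr, Ahr, Tiparp and Ephx1 past an adjusted p of 0.05. Arnt, Cyp1b1 and Gstp1 did not pass. Over all 15543 genes tested, 34.3% passed in either direction, 19.1% lower and 15.3% higher, so that a change by itself was common in this comparison. Both an adjusted p under 0.05 and a fold over 2 were met by 2 of the 9, Cyp1a1 and Gstp2, against 6.64% of all genes for lower genes. The groups did not overlap in 3 of the 9, Ahrr, Cyp1a1 and Gstp2, against 23.1% of all genes. The median log2 fold change was -0.42 over the 9 genes and 0.0076 over all genes tested. Without WT replicates 1 and 3, the libraries lowest in hair shaft genes, 2 of the 9 passed in edgeR (Cyp1a1 and Gstp2), in a fit where 2504 of all 15724 genes tested passed. Of the 9, 0 passed with the hair shaft score as a covariate (36 of all genes) or with the 5 WT libraries against knock-in replicate 1, the knock-in library that matched them in Xist (0 of all genes).

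**Figure D1:**
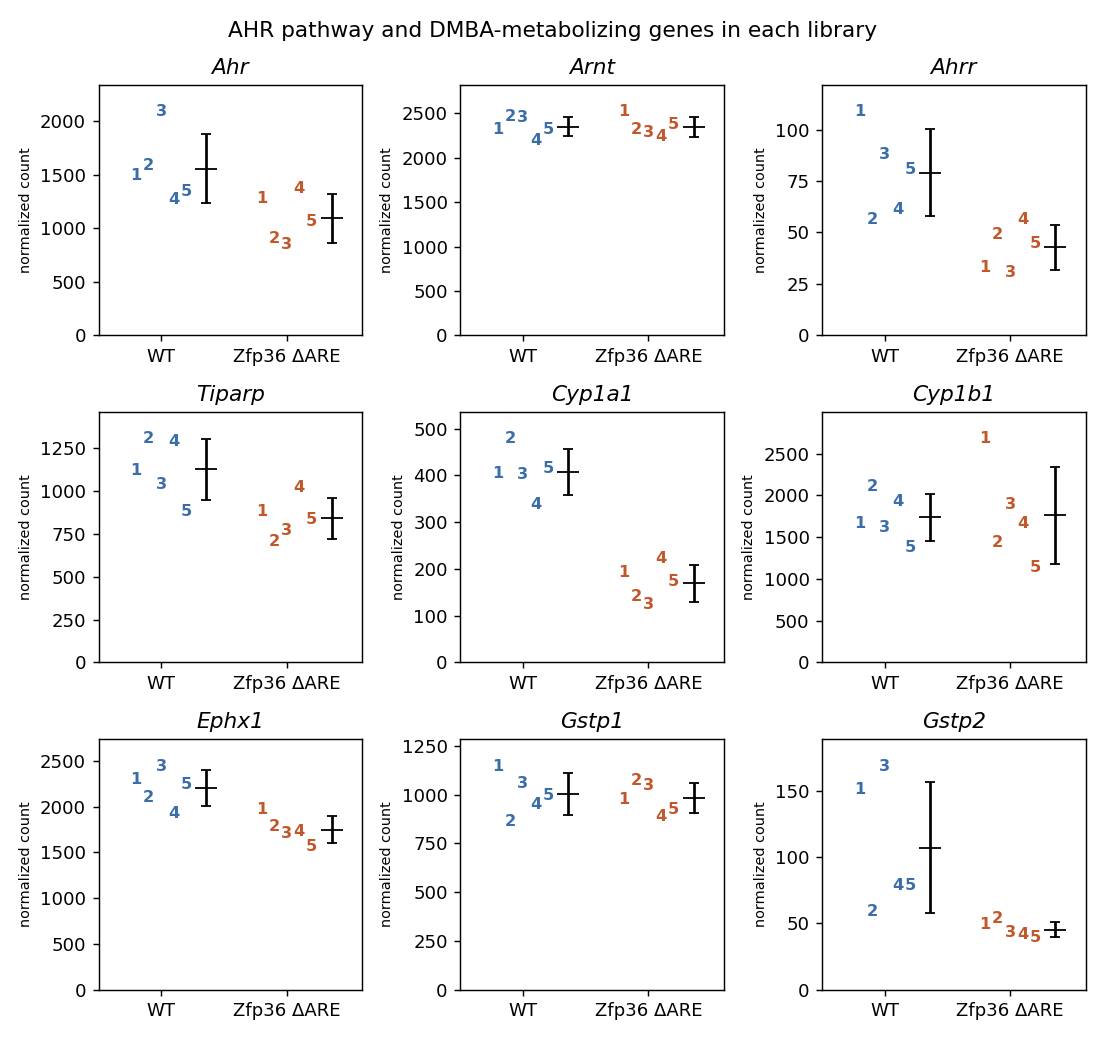
Normalized count (vertical axis, linear from 0) of each of the 9 genes in each library, drawn as its replicate number, in 5 WT mice (blue) and 5 Zfp36 ΔARE mice (orange), with the mean and SD in black. Cyp1a1 ran from 338.7 to 478.2 in WT and from 123 to 221.6 in Zfp36 ΔARE skin, and only Ahrr, Cyp1a1 and Gstp2 had groups that did not overlap.

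The receptor gene fell. Normalized counts of Ahr (chromosome 12, 35497974 to 35535038, minus strand) were 1493, 1584, 2087, 1268 and 1341 in WT replicates 1 to 5 and 1280, 904, 851, 1366 and 1060 in Zfp36 ΔARE replicates 1 to 5. WT replicate 3 stood highest, and knock-in replicates 1 and 4 lay within the WT range. The log2 fold change was -0.51 (SE 0.165, 95% interval -0.87 to -0.14, adjusted p = 0.0374). That call was lost without any 1 of WT replicates 1, 2 and 3 and knock-in replicates 2, 3 and 5 (adjusted p 0.0609 to 0.0866 in edgeR), and the value was -0.38 without WT replicate 3 and -0.16 with the hair shaft score as a covariate. It was -0.28 (adjusted p = 0.567, edgeR) with knock-in replicate 1 alone. Langerhans cells and other dendritic cells of the skin are known to express Ahr. The 8 markers of these cells summed to 1301 to 2187 CPM in WT and 750.4 to 1123 CPM in Zfp36 ΔARE skin, with 6 of 8 lower. Cd74, H2-Aa and H2-Ab1 made up most of this sum. Cd207 was at 12.02 to 19.99 CPM in WT and 6.462 to 10.72 CPM in Zfp36 ΔARE skin. Itgax, Flt3, Zbtb46 and Epcam overlapped between the groups, and the paper sorted epidermal cells by EpCAM. The part of these cells in the Ahr difference was not tested.

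Arnt, the DNA-binding partner of AHR (chromosome 3, 95434388 to 95497240, plus strand), was the steadiest of the 9. It had 2320, 2466, 2456, 2199 and 2318 normalized counts in WT replicates 1 to 5 and 2518, 2315, 2281, 2244 and 2374 in knock-in replicates 1 to 5. The groups overlapped throughout, with a log2 fold change of -0.0034 (95% interval -0.12 to 0.11, adjusted p = 0.967, edgeR). The ratio of Ahr to Arnt per gene length was 0.459 to 0.676 in WT and 0.297 to 0.484 in Zfp36 ΔARE skin. Its log2 difference of -0.508 had a p of 0.0238 by an exact two-sided permutation test, also 0.0238 after Benjamini-Hochberg adjustment over 3 ratios, a comparison chosen after the values were seen. Without WT replicates 1 and 3 that log2 difference was -0.39 (exact permutation p = 0.0893).

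Both inhibitors of the receptor fell. Ahrr, the AHR repressor (chromosome 13, 74211118 to 74292331, minus strand), had 108.7, 56.54, 87.86, 61.14 and 80.48 normalized counts in WT replicates 1 to 5 and 32.97, 48.89, 30.75, 56.08 and 44.83 in knock-in replicates 1 to 5. The groups were set apart by a narrow margin, between 56.08 in knock-in replicate 4 and 56.54 in WT replicate 2. The log2 fold change was -0.89 (SE 0.236, 95% interval -1.41 to -0.37, adjusted p = 0.0187, edgeR), on 28 to 118 raw counts per library, and it was -0.64 (adjusted p = 0.102) without WT replicates 1 and 3 and -0.56 (adjusted p = 0.411) with the hair shaft score as a covariate.

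Tiparp, a mono-ADP-ribosyltransferase that AHR induces and that limits it (chromosome 3, 65528410 to 65555518, plus strand), had 1118, 1304, 1040, 1289 and 880 normalized counts in WT replicates 1 to 5 and 881, 703, 770, 1019 and 832 in knock-in replicates 1 to 5. WT replicate 5 lay within the knock-in range. The log2 fold change was -0.42 (SE 0.126, 95% interval -0.70 to -0.14, adjusted p = 0.0281, edgeR). This call was lost without any 1 of WT replicates 1, 2 and 4 and knock-in replicates 2 and 3 (adjusted p 0.0539 to 0.067). It was also lost without WT replicates 1 and 3 (-0.46, adjusted p = 0.0647, edgeR). The same held with the hair shaft score as a covariate (-0.47, adjusted p = 0.244) and with a replicate block (-0.42, adjusted p = 0.0515). The value itself stayed between -0.50 and -0.35 under the alternatives run.

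Among the oxidizing enzymes, Cyp1a1 fell and Cyp1b1 did not pass the test. Cyp1a1 (chromosome 9, 57687928 to 57703824, plus strand), the gene most often used as a readout of AHR, had 405.2, 478.2, 402.7, 338.7 and 415.8 normalized counts in WT replicates 1 to 5 and 191.8, 140.3, 123, 221.6 and 172.7 in knock-in replicates 1 to 5. Every knock-in library lay below every WT library. The means of 408 ± 49.6 and 170 ± 39.5 (SD, n = 5 each) gave a log2 fold change of -1.27 (SE 0.161, 95% interval -1.62 to -0.91, adjusted p = 0.00369, edgeR), or 2.41-fold lower. Under the alternatives run the value stayed between -1.38 and -1.09. Its call was lost only with the hair shaft score as a covariate (-1.22, adjusted p = 0.0539) and with knock-in replicate 1 as the only knock-in library (-1.09, adjusted p = 0.295), a comparison of 5 libraries with 1 in which 0 of all genes passed.

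Cyp1b1, an AHR target of many extrahepatic tissues (chromosome 17, 79701537 to 79715061, minus strand), had 1661, 2111, 1613, 1923 and 1379 normalized counts in WT replicates 1 to 5 and 2677, 1435, 1892, 1668 and 1135 in knock-in replicates 1 to 5. The highest and the lowest library of all 10 were both Zfp36 ΔARE, replicates 1 and 5. The log2 fold change was 0.02 (SE 0.207, 95% interval -0.44 to 0.48, adjusted p = 0.946, edgeR), and it was -0.18 without knock-in replicate 1. With knock-in replicate 1 as the only knock-in library it was 0.63 (adjusted p = 0.295). The interval of Cyp1b1 overlapped that of Ahr (-0.87 to -0.14) and lay apart from that of Cyp1a1 (-1.62 to -0.91).

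The ratio of Cyp1b1 to Cyp1a1 per gene length put the difference between these enzymes on 1 scale. It was 2.23, 2.40, 2.18, 3.08 and 1.80 in WT replicates 1 to 5 and 7.58, 5.56, 8.36, 4.09 and 3.57 in Zfp36 ΔARE replicates 1 to 5. Cyp1b1 was the more abundant in every library, and the ratio was higher in every Zfp36 ΔARE library than in any WT library. The log2 difference was 1.26 (exact two-sided permutation p = 0.00794, the smallest that 5 against 5 allows, 0.0119 adjusted over 3 ratios), again a comparison chosen after the values were seen.

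**Figure D2:**
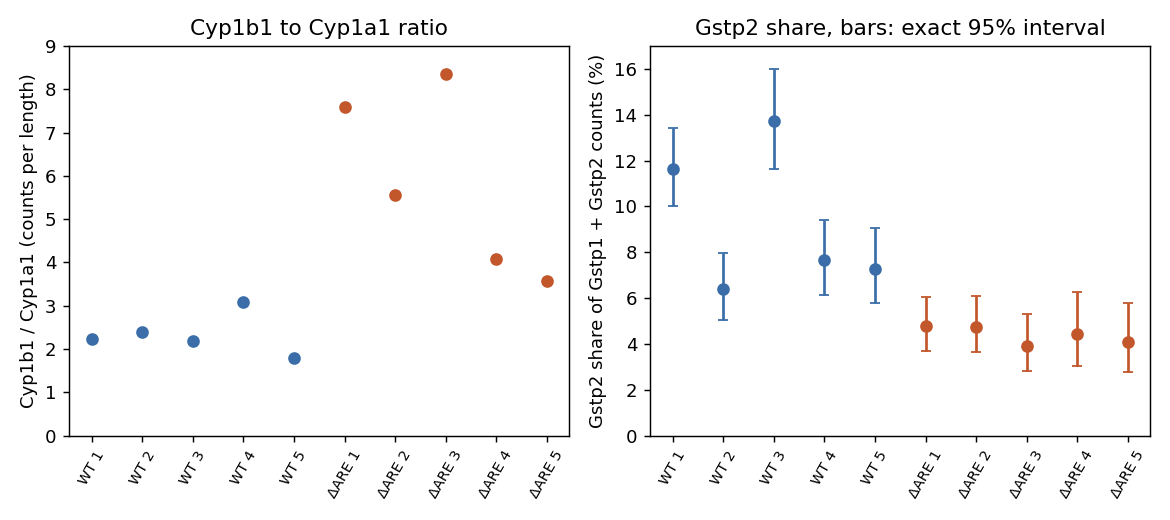
Left, ratio of Cyp1b1 to Cyp1a1 counts per gene length in each library. Right, percentage of Gstp2 in the summed counts of Gstp1 and Gstp2 with exact 95% binomial intervals (counting error only), in WT (blue) and Zfp36 ΔARE (orange) libraries. The ratio was 1.80 to 3.08 in WT and 3.57 to 8.36 in Zfp36 ΔARE skin, and the share was 6.40% to 13.7% and 3.92% to 4.76%.

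Ephx1, the hydrolase between both oxidation steps (chromosome 1, 180976210 to 181020904, minus strand), had 2291, 2099, 2442, 1923 and 2244 normalized counts in WT replicates 1 to 5 and 1970, 1779, 1704, 1728 and 1560 in knock-in replicates 1 to 5. The groups overlapped only through knock-in replicate 1, which lay above WT replicate 4. The log2 fold change was -0.33 (SE 0.079, 95% interval -0.51 to -0.16, adjusted p = 0.0134, edgeR), and it was -0.26 (adjusted p = 0.0596) without WT replicates 1 and 3. It was -0.21 (adjusted p = 0.339, edgeR) with the hair shaft score as a covariate and -0.16 (adjusted p = 0.556) with knock-in replicate 1 alone.

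The glutathione S-transferases Gstp1 and Gstp2 lie next to each other on the minus strand of chromosome 19, from 4035407 to 4037985 and from 4040285 to 4046023. Their coding sequences, of 630 bases each, are 98.1% identical. Of 650 windows of 50 bases in the coding sequence and 3′-UTR of Gstp2, 481 (74%) also occur in those of Gstp1. Fragments from such stretches could be assigned to either gene, and the 5′-UTRs were not compared. How the counting treated fragments that match both was not given in the sources used here. The separate values of both genes are uncertain for that reason, and their sum is given with them.

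Gstp1 had 1147, 863, 1059, 950 and 998 normalized counts in WT replicates 1 to 5 and 974, 1072, 1049, 891 and 926 in knock-in replicates 1 to 5, and the groups overlapped (log2 fold change -0.03, 95% interval -0.22 to 0.16, adjusted p = 0.803, edgeR). Gstp2 had 151, 58.97, 168.4, 78.61 and 78.41 normalized counts in WT replicates 1 to 5 and 48.71, 53.41, 42.83, 41.39 and 39.56 in knock-in replicates 1 to 5. Every knock-in library lay below every WT library, and WT replicates 1 and 3 stood far above the other WT libraries. The log2 fold change of Gstp2 was -1.23 (SE 0.295, 95% interval -1.88 to -0.58, adjusted p = 0.0135, edgeR).

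Much of the size of the Gstp2 difference rested on WT replicates 1 and 3, the libraries with the lowest hair shaft scores. Without them Gstp2 had a log2 fold change of -0.66 (adjusted p = 0.0384, edgeR), and with the hair shaft score as a covariate it was -0.45 (adjusted p = 0.452). The share of Gstp2 in the counts of both genes was 11.6%, 6.40%, 13.7%, 7.64% and 7.29% in WT and 4.76%, 4.75%, 3.92%, 4.44% and 4.10% in Zfp36 ΔARE skin. The difference of means was -4.94 percentage points (exact two-sided permutation p = 0.00794, 0.0119 adjusted over 3 ratios). The summed counts of both genes did not pass the test (1110 ± 152 and 1027 ± 81.7, log2 fold change -0.11, 95% interval -0.33 to 0.10, adjusted p = 0.385). Gstp3, a less similar member of the family with 72.8% coding identity to Gstp1, had a log2 fold change of -0.29 (adjusted p = 0.343).

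**Figure D3:**
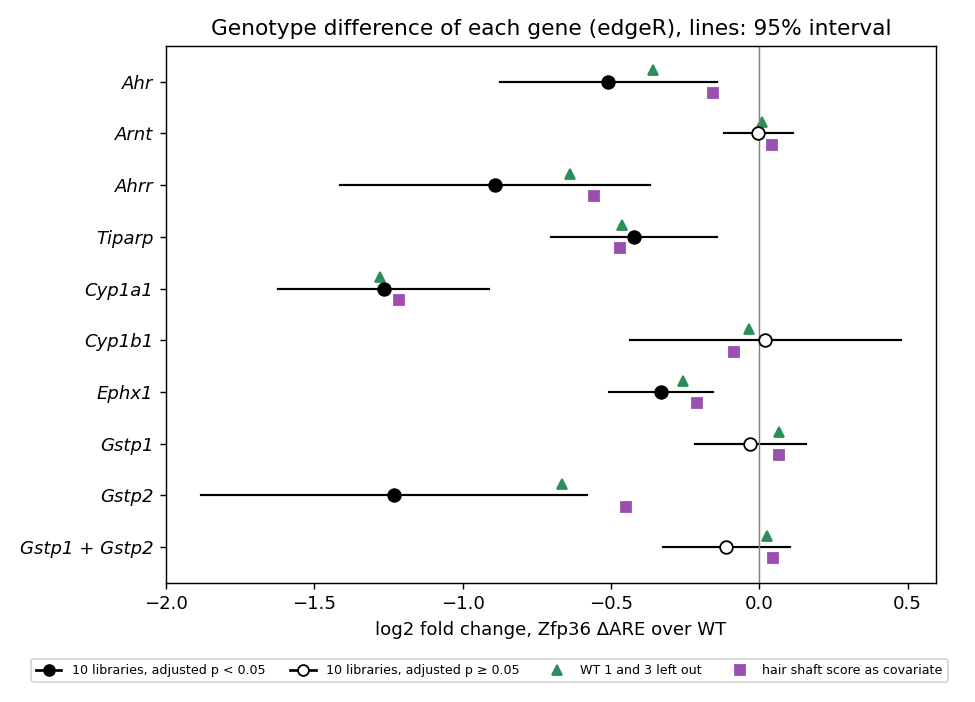
Log2 fold change of Zfp36 ΔARE over WT (horizontal axis) of the 9 genes and of the summed Gstp1 and Gstp2 counts, with 95% intervals from edgeR over 10 libraries, filled where adjusted p was under 0.05. Triangles leave out WT replicates 1 and 3 and squares add the hair shaft score as a covariate. Cyp1a1 stayed between -1.28 and -1.22, whereas Gstp2 moved from -1.23 to -0.66 and -0.45.

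The Cyp1a1, Gstp2 and Ahr values were set beside the hair shaft score of each library. Among WT libraries the scores were 5.48, 7.77, 2.66, 8.19 and 8.11 in replicates 1 to 5. WT replicates 3 and 1 had Cyp1a1 counts within those of the other WT libraries, but the highest Gstp2 counts of all 10. Ahr was highest in WT replicate 3. The scores of both groups did not overlap, so a fit with both terms separates them only by extending 1 group into the range of the other, and 36 of all genes tested passed in that fit.

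**Figure D4:**
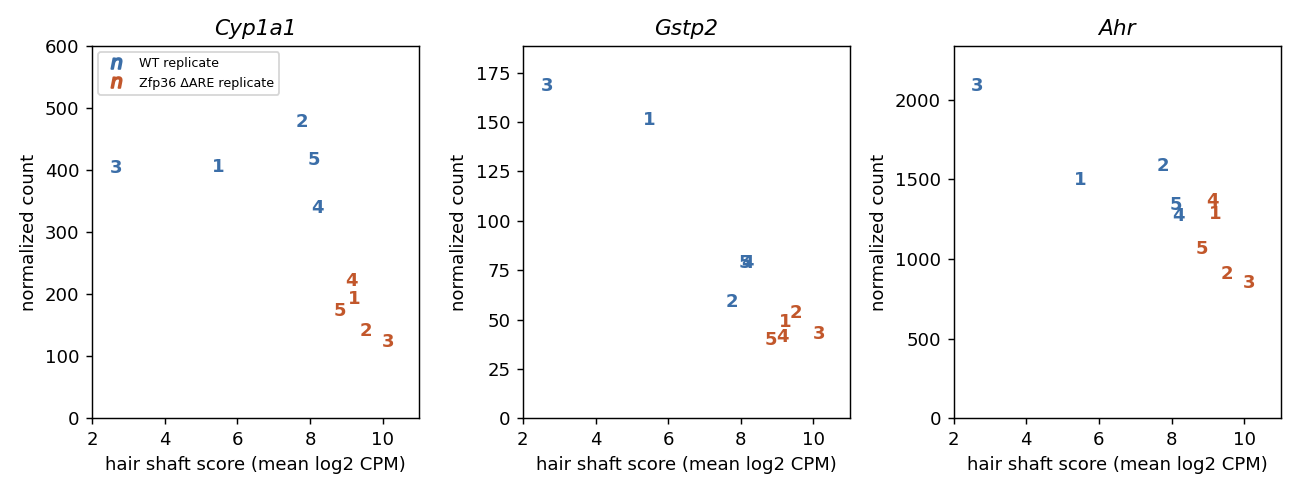
Normalized counts of Cyp1a1, Gstp2 and Ahr (vertical axes, linear from 0) against the hair shaft score (mean log2 CPM of 10 genes) of each library, drawn as its replicate number, WT in blue and Zfp36 ΔARE in orange. WT replicate 3, with a score of 2.66, had 403 normalized counts of Cyp1a1 and 168.4 of Gstp2, and no WT library reached the scores of the knock-in libraries (8.83 to 10.2).

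Markers of cell types in the biopsies were counted in the same fit, where 19.1% of all genes were lower. Skeletal muscle markers were lower in 8 of 8 (median log2 fold change -1.56), endothelial markers in 7 of 8 (-0.91) and adipocyte markers in 6 of 8 (-1.19), whereas 0 of 6 T cell markers passed (-0.15). Sebaceous markers, of cells known to express xenobiotic enzymes, summed to 3212 to 6493 CPM in WT and 1990 to 2662 CPM in Zfp36 ΔARE skin, with 5 of 8 lower (median log2 fold change -0.52). Most of that sum was Scd1, at 2533 to 5625 CPM in WT and 1476 to 2026 CPM in Zfp36 ΔARE skin. Far2, Pparg and Mgst1 also had groups that did not overlap, whereas Awat1, Awat2, Elovl3 and Soat1 overlapped. Macrophage markers summed to 627 to 1304 and 308.4 to 487.2 CPM, with 9 of 9 lower (median -1.35). Fibroblast markers, where Cyp1b1 is known to be expressed, summed to 6309 to 13370 and 3575 to 9995 CPM with 5 of 8 lower and the groups overlapping. Basal keratinocyte markers summed to 8082 to 12540 and 6886 to 13330 CPM, also overlapping, with 3 of 8 lower. Suprabasal keratinocyte markers summed to 12300 to 18190 CPM in WT and 8362 to 17060 CPM in Zfp36 ΔARE skin, with 2 of 8 lower and 2 higher. In knock-in replicates 1 to 5 this suprabasal sum was 8362, 8999, 8935, 17060 and 16420 CPM. No marker of these lists was at 0 in all libraries, and the part of any of these cell types in the differences above was not tested.

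The genes around the 9, in 7 lists of 89 genes by role, were counted next. Of 77 tested, 27 were lower and 6 higher in Zfp36 ΔARE skin and 44 did not pass, where 19.1% of all genes were lower and 15.3% higher, with a median log2 fold change of -0.26 against 0.0076 for all genes. The number that passed was 19 without WT replicate 1, 20 without WT replicate 3, 17 without knock-in replicate 2 and 15 without both WT replicates 1 and 3. It was 0 with the hair shaft score as a covariate and 0 with knock-in replicate 1 as the only knock-in library. In the AHR complex and its coregulators, 1 of 12 was lower and 4 were higher. The chaperone Hsp90aa1, which holds AHR in the cytoplasm, rose (4375 ± 532 to 5796 ± 1112 normalized counts, log2 fold change 0.41), as did the cell cycle regulator Rb1 (0.31), and Hsp90ab1 had a value of 0.0068 (adjusted p = 0.951, edgeR).

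Of 15 other tested genes that AHR is known to induce, 3 were lower and 2 higher, a share near that of all genes (19.1% lower and 15.3% higher). Aldh3a1, an aldehyde dehydrogenase, fell from 1024 ± 210 to 436 ± 107 normalized counts (log2 fold change -1.23, adjusted p = 0.00408, edgeR), a difference close in size to that of Cyp1a1 and without overlap. Xdh, the xanthine dehydrogenase gene with the highest mean normalized count of the list over all libraries, fell by 0.20 on the log2 scale. Ovol1, a transcription factor of keratinocyte differentiation, rose from 3268 ± 1046 to 6007 ± 425 (log2 fold change 0.88). The members Nqo1 (-0.47) and Slc7a5 (0.75), named after their values were seen to complete the 5 that passed, lay on opposite sides as well. The list as a whole had a median log2 fold change of -0.08.

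In the list of other oxidizing and carbonyl-reducing enzymes, 7 of 11 were lower and 0 higher, against 19.1% lower over all genes. The largest differences were in the aldo-keto reductases Akr1c14 (788 ± 407 to 93.3 ± 67.1 normalized counts, log2 fold change -3.05) and Akr1c18 (1912 ± 482 to 558 ± 328, -1.77). Cyb5r3, a cytochrome b5 reductase, fell by 0.29, and Akr1a1 had a log2 fold change of -0.12 without passing (adjusted p = 0.146, edgeR). Among 3 further epoxide hydrolases, Ephx2, the soluble enzyme, fell from 1017 ± 321 to 473 ± 55.5 (log2 fold change -1.10), and Ephx3 had a value of 0.04.

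Conjugating enzymes were lower or did not pass. Of 20 other glutathione S-transferases tested, 7 were lower and 0 higher (median log2 fold change -0.40), against 19.1% lower and 34.3% in either direction over all genes. They included Hpgds (-1.02), Gstm1 (-0.79), Gstz1 (-0.53) and Mgst1 (-0.32). Mgst1 is also one of the sebaceous markers. In glucuronidation, sulfation and export, 5 of 10 were lower and 0 higher (19.1% lower over all genes), with Sult1a1, a sulfotransferase, at -1.16, the efflux pump Abcg2 at -0.71 and Ugp2, which makes the UDP-glucose precursor, at -0.62. The exporter Abcc1 had a value of -0.16 and did not pass.

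Genes of tryptophan metabolism, from which endogenous AHR ligands are made, had 6 members tested of 10, with 3 lower and 0 higher (19.1% lower over all genes). Tph1, a tryptophan hydroxylase, had a log2 fold change of -1.49, Kmo -1.03 and Afmid -0.55. Tph1 is a mast cell gene, and 7 of 8 mast cell markers were lower and 1 higher (summed 232.3 to 581.1 CPM in WT and 128.3 to 162.8 CPM in Zfp36 ΔARE skin), with their part in the Tph1 value not tested. Over all lists, 22 of 77 genes had groups that did not overlap, where the share over all genes was 23.1%.

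**Figure D5:**
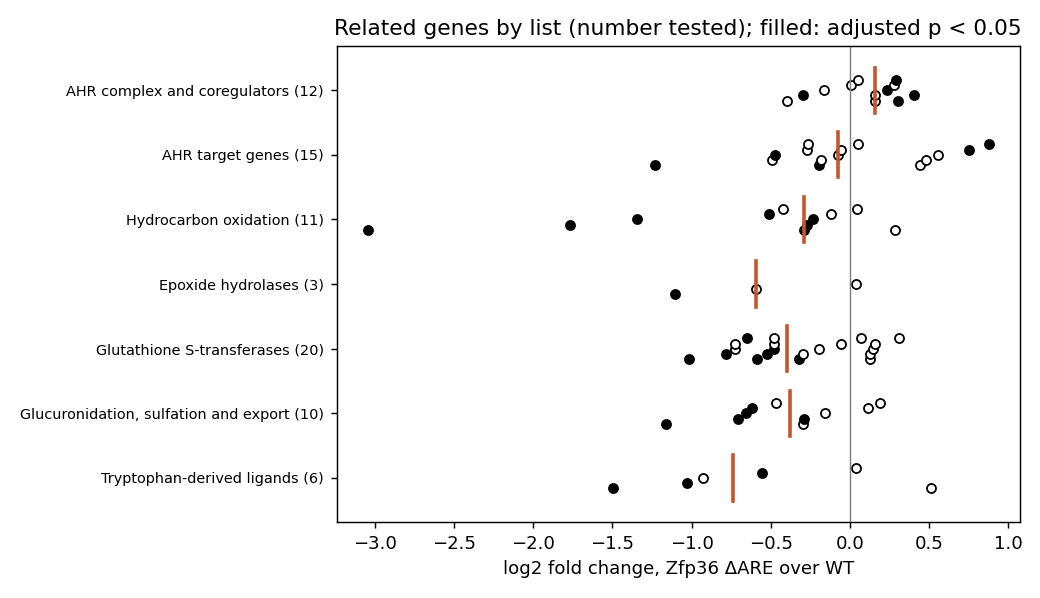
Log2 fold change of Zfp36 ΔARE over WT of each tested gene in 7 lists (number tested in parentheses), filled where the adjusted p from edgeR was under 0.05, with the median of each list as an orange bar. The medians ran from -0.74 in the tryptophan list to 0.16 in the AHR complex, and 27 of 77 genes were lower against 6 higher.

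Genes whose log2 CPM followed that of Ahr, Cyp1a1 and Cyp1b1 most closely over the 10 libraries, after each genotype's mean was taken off, are named as a description. For Ahr they were P2rx1 (Pearson r 0.967), Napsa (0.963) and Il18r1 (0.958). For Cyp1a1 they were Krt79 (0.962), a keratin of the hair follicle and its sebaceous duct, Stim2 (0.956) and Lmo1 (0.946). For Cyp1b1 they were St3gal5 (0.959), 4930402H24Rik (0.953) and Apoe (0.948). These r values are the highest among all genes tested, over 10 libraries that share depth and composition. Among the 9 genes, on the same scale, Ahr had an r of 0.749 with Cyp1a1, 0.381 with Tiparp, 0.312 with Ahrr and 0.197 with Cyp1b1. Cyp1a1 and Cyp1b1 had an r of 0.128. Gstp1 and Gstp2, whose fragments could be assigned to either gene, had an r of 0.804. Other pairs are not listed here.

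Some exons are shared with other annotated genes. Ahr shares 127 exonic bases with Gm48236 and Tiparp shares 223 with 4931440P22Rik, both on the opposite strand, and Ephx1 shares 72 with Gm36961 on its own strand. Whether the counting used strand was not given in the sources used here, so reads in the Ahr and Tiparp stretches cannot be told apart. For the Ephx1 stretch, strand could not separate the reads in either case. The overlaps are those of GENCODE vM21, and whether the counting annotation held these other genes was not given either.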

How the data were processed

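Paired-end RNA-seq was made from treated, tumor-free skin of 5 WT and 5 Zfp36 ΔARE mice. The authors discarded low-quality reads (mean score below 20), mapped the remainder to mm10 with STAR 2.5.2b, counted fragments per gene with featureCounts (Subread 1.5.0-p1) and deposited raw counts; the handling of multi-mapping and strand is not given in the sources used here. Rows with no gene name numbered 2 (7.38e-05% of counts) and were left out.

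From these counts, edgeR 4.0.16 (R 4.3.3) computed TMM factors, filtered with filterByExpr and fitted the quasi-likelihood model with genotype as the only term. Genes with a Benjamini-Hochberg adjusted p under 0.05 were called. Alternatives, given in the closing section, included DESeq2 1.42.0 and limma-voom (limma 3.58.1). Both log2 ratio comparisons and their alternatives were added after the values were seen. Normalized counts are TMM-scaled to the mean library size. The 9 genes, the lists and the tests were chosen with earlier results of these data known. Genes were named by a fixed rule, with exceptions. The rule took the 9, Zfp36, and the 2 most abundant and the 2 most changed called genes of each list. It also took the 3 genes closest to each of Ahr, Cyp1a1 and Cyp1b1. Named outside it were Nqo1, Slc7a5, Gstp3, Xist, single cell type markers and genes that share exons with the 9. The script was tested on simulated data. No 2 libraries held identical counts.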

Additional observations from a re-analysis of the deposited data

Results flagged for a closer look

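In 70 groups of 5 libraries, of which about 1 in 20 would be set apart by chance (3.5 of 70), 3 held a library far from the others by Dixon's ratio of its gap to the whole range, with a critical value of 0.71. Hsp90aa1 in WT replicate 3 was at 3462 normalized counts, whereas the remaining WT libraries held 4436 to 4782 (ratio 0.738). Gstz1 in the same library had 3572 against 2023 to 2384 (ratio 0.767). Akr1c14 in Zfp36 ΔARE replicate 1, the knock-in library with only 1 Y-linked count, had 212.1 against 51.43 to 77.44 in the other knock-in libraries (ratio 0.838).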

How the results depend on the processing

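The count of the 9 genes past the adjusted p (6) and of those with a fold over 2 as well (2) stayed within 1.5 times under other scaling, other filters, DESeq2 and limma-voom. With the hair shaft score as a covariate, and with 5 WT libraries against knock-in replicate 1, both counts were 0, and so was the count of related genes (33 in the full fit). Without WT replicates 1 and 3 they were 2, 1 and 15. With a replicate block they were 3, 2 and 18, though same-numbered samples did not deviate together (r -0.177 to 0.085, 0 of 5 best with its own number), so the numbers do not pair the samples. Leaving out 1 library gave 4 to 6 of the 9 genes, 2 to 3 with the fold and 17 to 33 related genes (19 without WT replicate 1, 20 without WT replicate 3, 17 without knock-in replicate 2). The summed Gstp genes reversed to 0.0457 with the hair shaft score and to 0.0254 without WT replicates 1 and 3. The 3 genes that did not pass changed sign between settings. Cyp1b1 was -0.013 under upper-quartile scaling, -0.0215 in limma-voom, -0.0254 with the replicate block, -0.0844 with the hair shaft score, -0.0331 without WT replicates 1 and 3, -0.18 to 0.14 with 1 library left out and 0.63 with knock-in replicate 1 alone. Arnt was 0.0424 with the hair shaft score, 0.10 with knock-in replicate 1 alone, 0.0105 without WT replicates 1 and 3, and -0.0309 to 0.0146 with 1 library left out. Gstp1 was 0.0655 with the hair shaft score, 0.0674 without WT replicates 1 and 3, and -0.0795 to 0.0226 with 1 library left out. The Cyp1b1 to Cyp1a1 log2 ratio was 1.72 (exact permutation p = 0.167) with knock-in replicate 1 alone, and Ahr to Arnt was -0.36 there (p = 0.333, exact) and -0.39 without WT replicates 1 and 3. The cause of these shifts was not tested. With knock-in replicate 1 alone, the parts of sex, sample number and the single animal cannot be told apart. Scaling moved the median of all genes by no more than -0.0347 on the log2 scale (upper-quartile). Depth limits Ahrr and Gstp2 most, at 28 to 118 and 30 to 164 raw counts.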
